A study of Mus musculus with 3 samples.

Results

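The Schlafen genes Slfn1, Slfn2, Slfn4 and Slfn5 were followed through mouse blood leukocytes. The 4 genes were chosen by symbol and each matched 1 of the 31053 gene rows of the deposited table. Blood of C57/BL6J mice was measured by droplet single-cell RNA sequencing, which counts unique molecular identifiers (UMIs, 1 per captured transcript) at the 3′ end of transcripts. According to the labels, 1 library was made from control mice (Con, 0 h), 1 after 24 h (SD24h) and 1 after 48 h (SD48h) in a study of sleep deprivation. Red cells were lysed, the remaining cells of 3 mice went into each library, and all 3 groups shared strain, pentobarbital anaesthesia and blood handling. No label ties the barcode endings 1, 2 and 3 of the pooled table to a group. The libraries are therefore named 1, 2 and 3, nothing is read as an effect of sleep loss, and their numbers give no order in time.

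Schlafen genes form a rodent-expanded family first described in developing thymocytes. Several members are induced by type I interferon, the antiviral cytokine that acts through the receptor chains Ifnar1 and Ifnar2 and transcription factors that include Stat2 and Irf9. Slfn2 is known for keeping T cells quiescent, since mice with a loss-of-function allele lose T cells and inflammatory monocytes. Slfn1 is a short member named for growth arrest of T-lineage cells. Slfn4 is known from myeloid cells, and Slfn5 is a long member with a nuclear localisation.

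All 4 genes lie on the plus strand of mouse chromosome 11 (GRCm38, GENCODE annotation), within 238868 bases. Slfn5 (ENSMUSG00000054404) spans positions 82951349 to 82964840, Slfn2 (ENSMUSG00000072620) 83065112 to 83070678, Slfn1 (ENSMUSG00000078763) 83116849 to 83122670 and Slfn4 (ENSMUSG00000000204) 83175186 to 83190216. All are annotated as protein-coding, with longest transcripts of 2 exons for Slfn1 and Slfn2, 6 for Slfn5 and 8 for Slfn4. Slfn5 overlaps the antisense gene Slfn5os on the minus strand, which had 3 UMIs in the 5 main cell classes. No source used here says whether the counting used strand, so it is not known here whether reads in the overlap were told apart. The outermost annotated 3′ ends, 82964840 for Slfn5 and 82942341 for Slfn5os, both lie outside the overlap. None of the words of 50 bases in the last 500 bases of the members' transcripts occurred in a transcript of another gene, whereas 25.5% of those of the non-member Slfn8 and 15.8% of those of Slfn9 did. For Slfn3 the share was 15.98%, and 123 of its 125 shared words lie in a Slfn4 transcript, outside the last 500 bases of Slfn4.

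The promoters are shown because 3 of the members led in the same cell class and the fourth in another. The sequences are from RefSeq (GRCm38.p6), and all 4 members matched. Capitals mark a word of 11 bases, ACTTCCTGGAG, shared by Slfn1, Slfn2 and Slfn4, and in Slfn5 a match to the interferon-stimulated response element, the paired TTTC motif that interferon-activated factors bind, which lies on the opposite strand. The shared word was picked as the longest shared by at least 3 of the 4 promoters after the sequences had been seen. The first 3 windows cover the 250 bases before the RefSeq start. The Slfn5 window is counted from a RefSeq start that follows position 82952101, downstream of the first base of a shorter GENCODE transcript that opens the span above. It is printed only up to the first exon in it that is annotated to any Slfn gene, on either strand.
Slfn1 (chr11:83116570-83116819, plus): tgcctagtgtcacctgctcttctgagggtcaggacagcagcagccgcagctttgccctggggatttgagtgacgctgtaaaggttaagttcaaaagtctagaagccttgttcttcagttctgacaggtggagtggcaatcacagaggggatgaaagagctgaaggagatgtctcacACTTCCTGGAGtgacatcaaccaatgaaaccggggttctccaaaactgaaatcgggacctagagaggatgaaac
Slfn2 (chr11:83064862-83065111, plus): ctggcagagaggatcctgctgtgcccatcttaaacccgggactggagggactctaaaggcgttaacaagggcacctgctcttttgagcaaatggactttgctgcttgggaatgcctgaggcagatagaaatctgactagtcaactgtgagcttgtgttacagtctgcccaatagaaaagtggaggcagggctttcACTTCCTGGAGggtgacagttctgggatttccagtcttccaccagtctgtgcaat
Slfn4 (chr11:83174936-83175185, plus): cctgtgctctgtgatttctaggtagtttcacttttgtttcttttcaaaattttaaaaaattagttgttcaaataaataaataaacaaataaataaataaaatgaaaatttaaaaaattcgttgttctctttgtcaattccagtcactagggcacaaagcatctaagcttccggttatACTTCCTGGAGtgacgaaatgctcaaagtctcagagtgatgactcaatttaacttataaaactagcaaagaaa
Slfn5 (chr11:82951852-82951984, plus): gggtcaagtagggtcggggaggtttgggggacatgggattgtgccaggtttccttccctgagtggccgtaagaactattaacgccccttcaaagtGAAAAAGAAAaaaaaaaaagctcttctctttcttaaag

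The shared word ended 64 bases before the start in Slfn1, 45 in Slfn2 and 63 in Slfn4, on the gene's own strand in each. It was found on either strand in 24 of 32851 promoter windows of 300 bases, or 0.0731%. The interferon-stimulated response element was found in 3.44% of windows and, among the members, in Slfn5 alone, ending 146 bases before its RefSeq start. The gamma-activated site TTCNNNGAA, found in 8.30% of windows, had no match in the 4 windows. The PU.1-type ETS site, in 0.426%, and the NF-kappaB site, in 0.155%, had none either, each searched only as an exact word of 10 bases. Read on the opposite strand, the shared word ends in a run of letters that is part of this ETS word. Shorter or variant forms of an ETS site were not searched. All motifs were searched on both strands and none of the matches overlapped another. A match describes letters in these windows only.

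The libraries held 8815, 6648 and 6741 barcodes with 40807434, 30114546 and 36523283 UMIs. Filtering left 6981, 5755 and 5539 cells, where about 7000 had been planned for each. Cells were grouped into neutrophil-, monocyte-, B-, T- and NK-like classes from marker lists, without the 4 Schlafen genes among the genes used for clustering. Library 1 stood apart: neutrophil-like cells made up 7.86% of its kept cells, against 56.4% and 35.9% in libraries 2 and 3, and B-like cells 55.8% against 23.9% and 34.5%. Its neutrophil-like cells also lay in a cluster of their own, led by Cd101 and Jaml, which held 537 of its 549 such cells, 35 of 3248 in library 2 and 2 of 1987 in library 3. Over all barcodes the median mitochondrial share of UMIs was 6.65% in library 1, 1.03% in library 2 and 4.32% in library 3, and a stricter filter of 500 genes and 5% mitochondrial UMIs kept 1526, 3951 and 3126 cells. Within classes of kept cells the median share was closer between libraries 1, 2 and 3. It was 6.98%, 6.33% and 6.07% in B-like cells and 5.98%, 5.46% and 5.35% in T-like cells, above the 5% limit of that filter. In monocyte-like cells it was 3.40%, 3.26% and 3.42%, and in neutrophil-like cells 1.20%, 0.514% and 0.796%. Pairs of libraries shared 17 to 23 barcode sequences, and none occurred in all 3.

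Levels are given as CPM, the UMIs of a gene per 1000000 UMIs of a class in a library. A class was said to lead where the 95% interval of its ratio to the next class excluded 1 in a library. All intervals cover counting error only, and with 1 library per group there is no replicate and no p-value. For each of the 4 members 1 class led in every library, which held for 20.9% of the 13170 genes measured. The measured genes had 20 UMIs or more in the 5 classes, and the members 7022 to 43517. Few UMIs give wide intervals, so the members are not matched in depth to all genes. Slfn1, Slfn2 and Slfn4 were led by neutrophil-like cells, as were 5.59% of genes, and Slfn5 by monocyte-like cells, as were 5.88%. B-like cells led for 3.57% of genes, T-like cells for 2.48% and NK-like cells for 3.4%, and no member was among these.

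**Figure D1:**
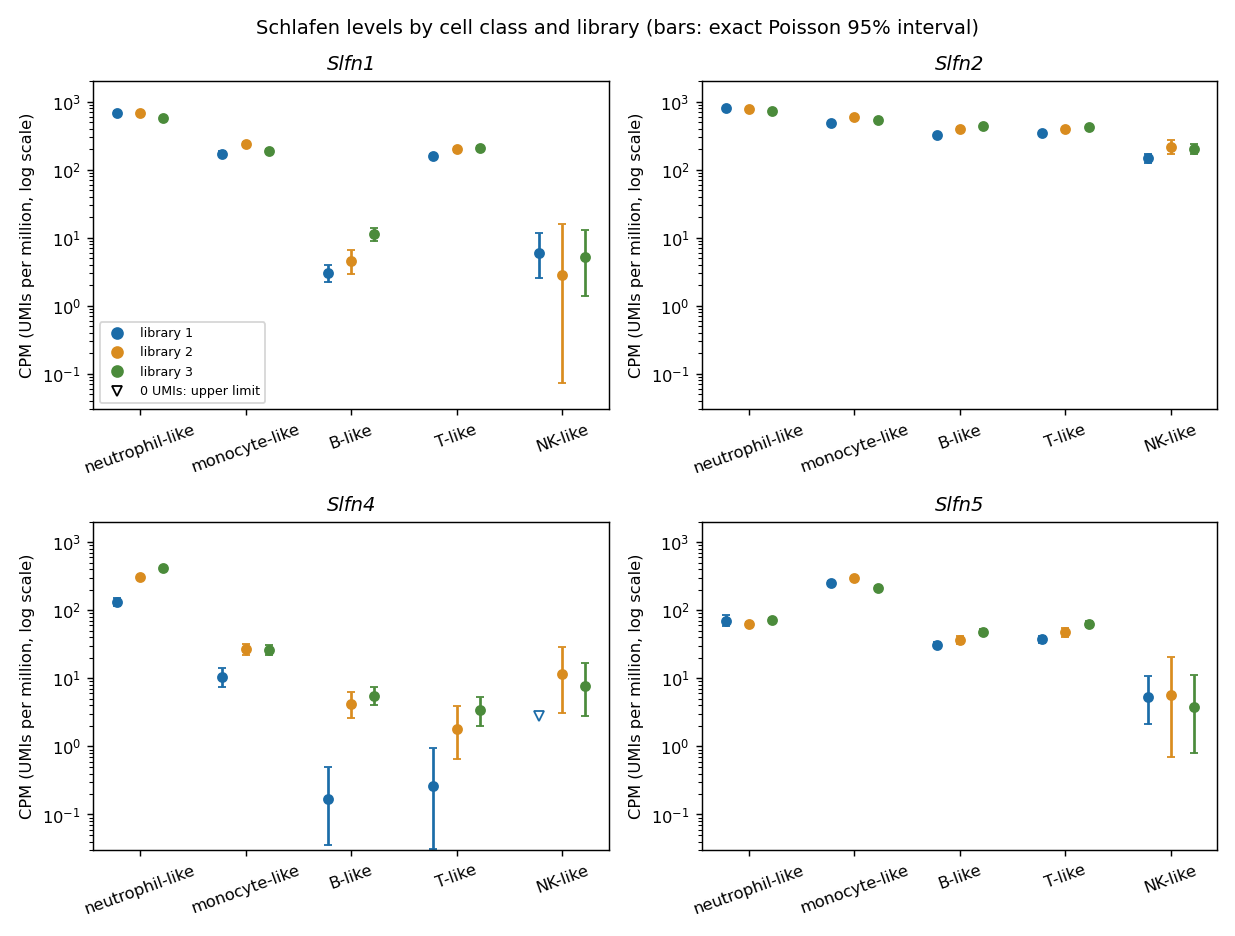
Level of each member (CPM, log axis) in the 5 cell classes of each library; points are single libraries, bars exact Poisson 95% intervals, and open triangles the upper limit where no UMI was counted. Neutrophil-like cells are highest for Slfn1, Slfn2 and Slfn4 and monocyte-like cells for Slfn5, and B- and NK-like cells are both near the bottom for Slfn1, while NK-like cells are lowest for Slfn2.

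Slfn1 separated the classes into high, middle and low. Its levels were 677, 676 and 565 CPM in the neutrophil-like class of libraries 1, 2 and 3. Monocyte-like cells followed at 171, 240 and 188 CPM and T-like cells at 159, 198 and 207 CPM, and the order of this pair changed between libraries. The lead over the next class was 3.96-fold (95% interval 3.59 to 4.37), 2.81-fold (2.64 to 3.004) and 2.73-fold (2.56 to 2.91). With TMM scaling, which sets the bulk of genes equal between sums, it was 4.39-fold, 5.86-fold and 5.49-fold. B-like cells held only 3.02, 4.49 and 11.3 CPM and NK-like cells 6.0, 2.87 and 5.11 CPM, the last from 8, 1 and 4 UMIs. The lymphocytes were thus split for Slfn1: T-like cells exceeded B-like cells 52.5-fold (39.9 to 70.5), 44.1-fold (29.6 to 68.6) and 18.2-fold (14.6 to 23.0) in libraries 1, 2 and 3, while B- and NK-like cells could not be told apart in any library at this depth.

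Slfn2, the member tied to T cell quiescence, was the most even. Neutrophil-like cells held 794, 776 and 721 CPM and monocyte-like cells 481, 595 and 537 CPM. T-like cells held 345, 392 and 416 CPM, B-like cells 322, 400 and 436 CPM and NK-like cells 146, 215 and 201 CPM. The neutrophil lead over monocyte-like cells was 1.65-fold (1.54 to 1.77), 1.30-fold (1.25 to 1.36) and 1.34-fold (1.29 to 1.40), and with TMM scaling 2.13-fold, 2.72-fold and 3.12-fold. NK-like cells were lowest of the 5 classes in every library, and T- and B-like cells could be told apart only in library 1, where T-like cells were 1.07-fold higher (1.02 to 1.12). Erythroid-like cells, with 154, 64 and 76 cells, held 28.6, 40.8 and 64.9 CPM.

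Slfn4 had the largest lead of the 4 members. Its levels there were 133, 310 and 415 CPM, against 10.5, 26.8 and 26.0 CPM in monocyte-like cells. The lead was 12.6-fold (8.91 to 18.2), 11.6-fold (9.63 to 14.0) and 15.9-fold (13.6 to 18.9), and with TMM scaling 16.2-fold, 24.1-fold and 37.1-fold. B-like cells held 0.171, 4.13 and 5.54 CPM and T-like cells 0.260, 1.80 and 3.42 CPM. NK-like cells of library 1 had 0 UMIs of Slfn4, where the count limit of 3 UMIs lies at 2.25 CPM, and those of libraries 2 and 3 held 11.5 and 7.67 CPM from 4 and 6 UMIs.

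RNA released from broken neutrophils can enter any droplet, so the low Slfn4 levels were set beside neutrophil genes. B-like cells held 0.129%, 1.34% and 1.33% of the neutrophil level of Slfn4, and 0.0475%, 0.357% and 0.237% of that of S100a8, an abundant neutrophil calcium-binding protein. For Retnlg, a neutrophil secreted protein, the shares were 0.0480%, 0.336% and 0.260%. In monocyte-like cells the share for Slfn4 was 7.95%, 8.64% and 6.27%, against 2.47%, 3.91% and 3.20% for S100a8. The shares for Slfn4 and S100a8 were both lowest in library 1 among the B-like cells; the part of free RNA in the low Slfn4 levels was not tested.

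Slfn5 had a different profile. Monocyte-like cells held 256, 293 and 212 CPM, neutrophil-like cells 70.2, 62.3 and 73.0, T-like cells 37.7, 47.4 and 63.0, B-like cells 31.3, 36.3 and 48.2 and NK-like cells 5.25, 5.74 and 3.84 CPM. The lead of monocyte- over neutrophil-like cells was 3.65-fold (3.003 to 4.46), 4.71-fold (4.29 to 5.16) and 2.90-fold (2.65 to 3.17). With TMM scaling it shrank to 2.83-fold (2.33 to 3.46), 2.26-fold (2.06 to 2.48) and 1.25-fold (1.14 to 1.37). By CPM each step of this order excluded 1 in each library, so all 5 classes were ordered alike in the 3 libraries. Dendritic-like cells, with 39, 27 and 19 cells and therefore outside the order, held 136, 172 and 249 CPM. The lead in library 1 depended on how monocyte-like cells were drawn, as given with the clusters.

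The other family members had no fixed leading class. Slfn8 was spread over the classes, with 57.6, 55.1 and 44.6 CPM in monocyte-like, 51.2, 51.8 and 53.7 in B-like and 25.4, 24.7 and 23.8 in neutrophil-like cells. Slfn9 peaked at 15.7 CPM in monocyte-like cells of library 1, and Slfn3 and Slfn14 stayed at or below 3.03 CPM in each class and library. Slfn9, Slfn3 and Slfn14 had only 321, 48 and 89 UMIs in the 5 classes, which widens their intervals. Slfnl1 had 0 UMIs in the 5 classes.

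Because deeper cells show more genes, each cell was also thinned to 1000 UMIs and the share of cells with a UMI was counted. In the neutrophil-like class of libraries 1, 2 and 3, Slfn2 was then found in 52.0%, 52.3% and 50.9% of cells, against 82.0%, 85.8% and 88.9% before thinning. Slfn1 was found in 45.6%, 47.5% and 42.1% of them, against 78.1%, 82.5% and 86.7%. Slfn4 was found in 10.0%, 23.8% and 32.5%, against 23.9%, 52.3% and 76.0%. Slfn5 was found in 14.5%, 16.5% and 14.1% of monocyte-like cells, against 47.6%, 71.7% and 63.6%. The leading class by CPM also had the highest thinned share for each of the 12 pairs of member and library. In B-like cells thinned Slfn4 was found in 0.0519%, 0.370% and 0.696% of cells. Median depths before thinning were 2759, 3230 and 5133 UMIs in neutrophil-like and 3927, 3779 and 3584 in B-like cells; thinning left out 9, 128 and 60 neutrophil-like cells that were shallower.

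**Figure D2:**
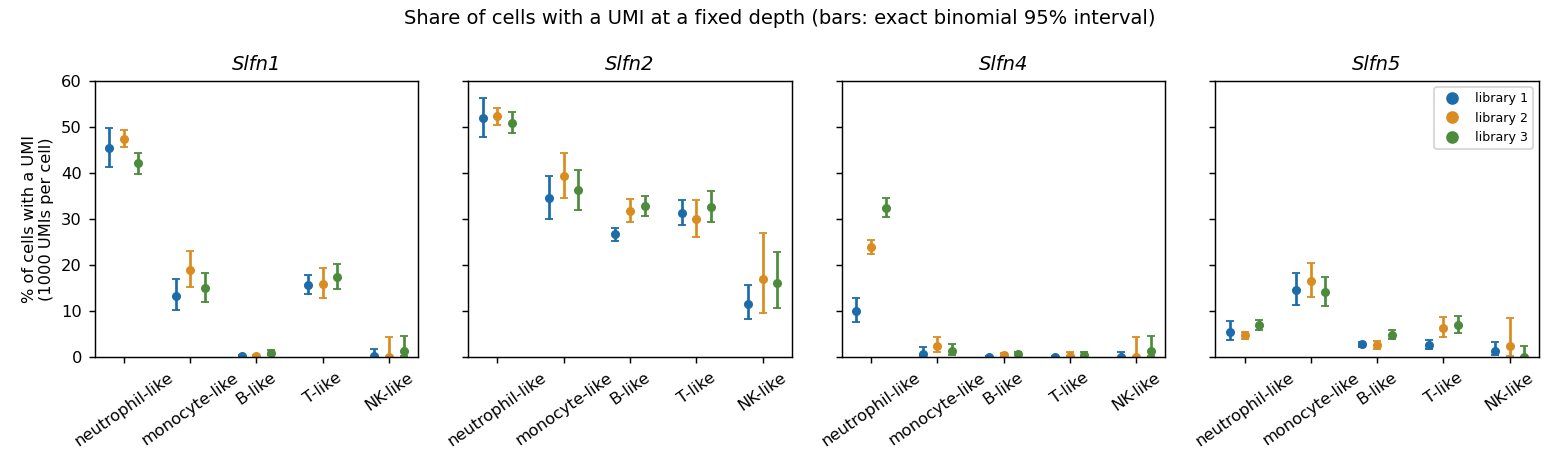
Share of cells (%) with at least 1 UMI of each member after every cell was thinned to 1000 UMIs, by class and library; bars are exact binomial 95% intervals. Slfn4 in neutrophil-like cells goes from 10.0% in library 1 to 32.5% in library 3, while Slfn1 and Slfn2 stay between 42.1% and 52.3%.

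Inside the B-like class a small cluster carried much of the Slfn5 signal. The cluster was led by Ifit3, Ifit3b and Usp18, which are interferon-induced genes, and held 59 of 3892, 53 of 1376 and 98 of 1913 B-like cells. Slfn5 stood there at 417, 310 and 357 CPM, against 25.5, 23.9 and 29.5 CPM in the other B-like cells, a ratio of 16.3 (13.1 to 20.2), 13.01 (9.64 to 17.4) and 12.1 (9.77 to 14.98). A UMI of Slfn5 was seen in 54.2%, 49.1% and 42.9% of the cluster's cells and in 8.87%, 7.94% and 8.93% of the others, at median depths of 3771, 3935 and 3776 UMIs against 3928, 3768 and 3572. The cluster was 1.52%, 3.85% and 5.12% of B-like cells and gave 19.5%, 37.1% and 42.2% of their Slfn5 UMIs. A cluster is made from the same cells, so these ratios are descriptions; the Schlafen genes were not among the genes used to form it.

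The other members differed in that cluster. Slfn2 was 2.13-fold (1.82 to 2.48), 1.94-fold (1.65 to 2.26) and 1.58-fold (1.40 to 1.79) higher than in the other B-like cells. Slfn1 stood at 7.80, 12.4 and 62.7 CPM against 2.95, 4.13 and 8.25 CPM, and only in library 3, with 27 UMIs, did the interval exclude 1. Slfn4 had 0, 2 and 2 UMIs in it.

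Neutrophil-like cells held a like cluster at a finer clustering resolution. It was led by Ifit3b, Ifit1 and Isg15, also interferon-induced, and held 1, 144 and 194 cells, so library 1 gives no value. Slfn5 stood there at 385 CPM in library 2 and 263 in library 3, against 47.0 and 57.0 CPM in the other neutrophil-like cells, a ratio of 8.20 (6.93 to 9.67) and 4.60 (3.93 to 5.38). Slfn4 was 3.10-fold (2.81 to 3.43) and 1.79-fold (1.64 to 1.95) higher, at 878 and 701 CPM. Slfn1 was 1.51-fold and 1.48-fold and Slfn2 1.38-fold and 1.49-fold higher. In both libraries Slfn5 thus had the largest ratio of the 4 members and Slfn4 the next.

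Monocyte-like cells fell into a cluster led by Fn1 and Vcan and a cluster led by Cd300e and Ace. The first met 8 of 10 listed markers of classical monocytes, the inflammatory form, and the second 11 of 12 of non-classical monocytes, the patrolling form. Slfn5 stood at 369, 316 and 258 CPM in the first and at 29.3, 56.4 and 79.8 CPM in the second, a ratio of 12.6 (9.01 to 18.1), 5.61 (3.69 to 8.99) and 3.24 (2.68 to 3.93). Slfn1 stood at 237, 258 and 222 CPM against 37.5, 58.9 and 89.0. Slfn2 was close to even, with ratios of 1.42 (1.27 to 1.58), 1.54 (1.31 to 1.82) and 1.10 (1.01 to 1.19).

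The Fn1- and Vcan-led cluster did not hold the same cells in each library. At the finer resolution 213 of its 221 cells in library 1 moved to a cluster led by Cd209a and Clec10a, genes of monocyte-derived and dendritic cells, and 7 to a Vcan-led cluster. In libraries 2 and 3, 319 of 344 and 273 of 301 of its cells moved to the Vcan-led cluster. Slfn5 stood at 352, 333 and 265 CPM in the Cd209a-led cluster and at 308 and 259 CPM in the Vcan-led cluster of libraries 2 and 3. With the Cd209a-led cells left unnamed, monocyte-like cells no longer led for Slfn5 in library 1 (log2 ratio to the next class -0.75, interval -1.24 to -0.27).

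Among T-like cells, the cluster led by Ly6c1, Cd4 and Cd40lg was set against the cluster led by Cd8b1 and Cd8a, the coreceptors of helper and cytotoxic T cells. Slfn1 stood at 205, 251 and 271 CPM in the first and 121, 138 and 159 CPM in the second, a ratio of 1.70 (1.52 to 1.91), 1.81 (1.54 to 2.14) and 1.70 (1.51 to 1.92). Slfn2 was 1.43-fold (1.33 to 1.55), 1.83-fold (1.63 to 2.06) and 1.79-fold (1.64 to 1.95) higher in the Cd4-led cluster. Slfn5 was 1.79-fold (1.41 to 2.28), 3.63-fold (2.44 to 5.56) and 2.26-fold (1.80 to 2.85) higher. The direction was thus the same for 3 members in 3 libraries, and Slfn4 had too few UMIs for a ratio.

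**Figure D3:**
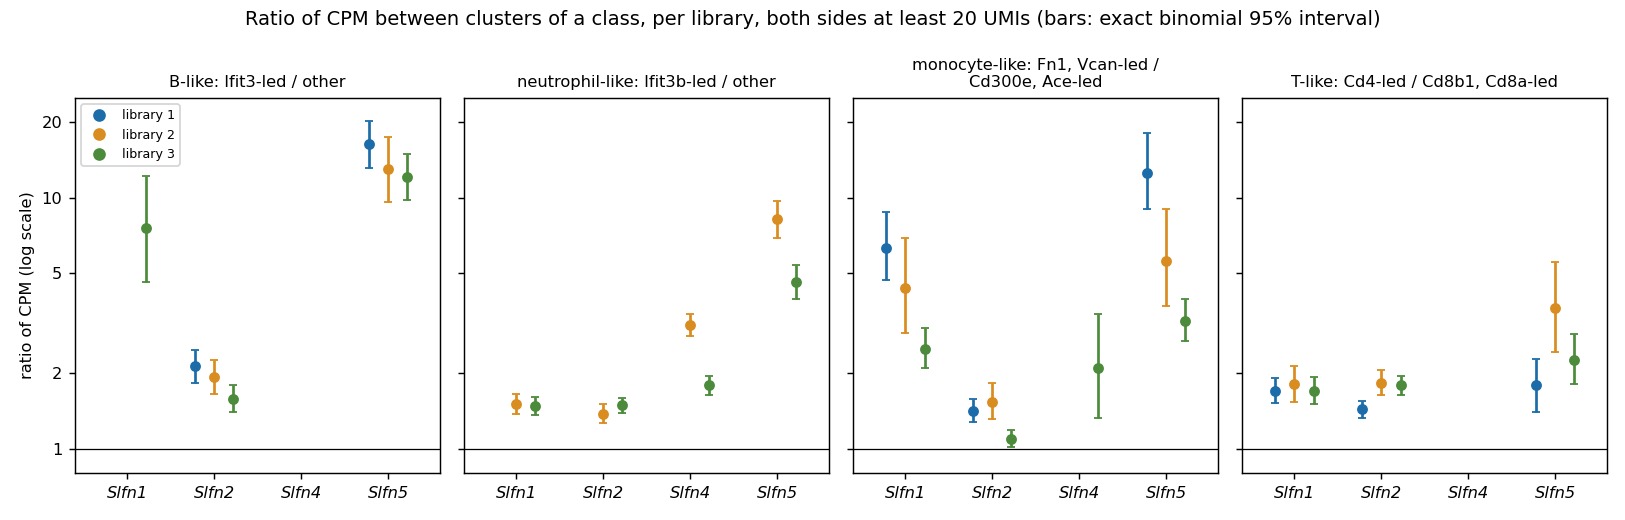
Ratio of CPM (log axis) between clusters of a class for each member and library, with exact binomial 95% intervals; only ratios with at least 20 UMIs on both sides and at least 50 cells in the first cluster are drawn. Among the ratios drawn, Slfn5 has the highest in the Ifit3-led B-like, the Ifit3b-led neutrophil-like and the Fn1- and Vcan-led monocyte-like clusters, while Slfn2 stays below 2.2.

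**Figure D4:**
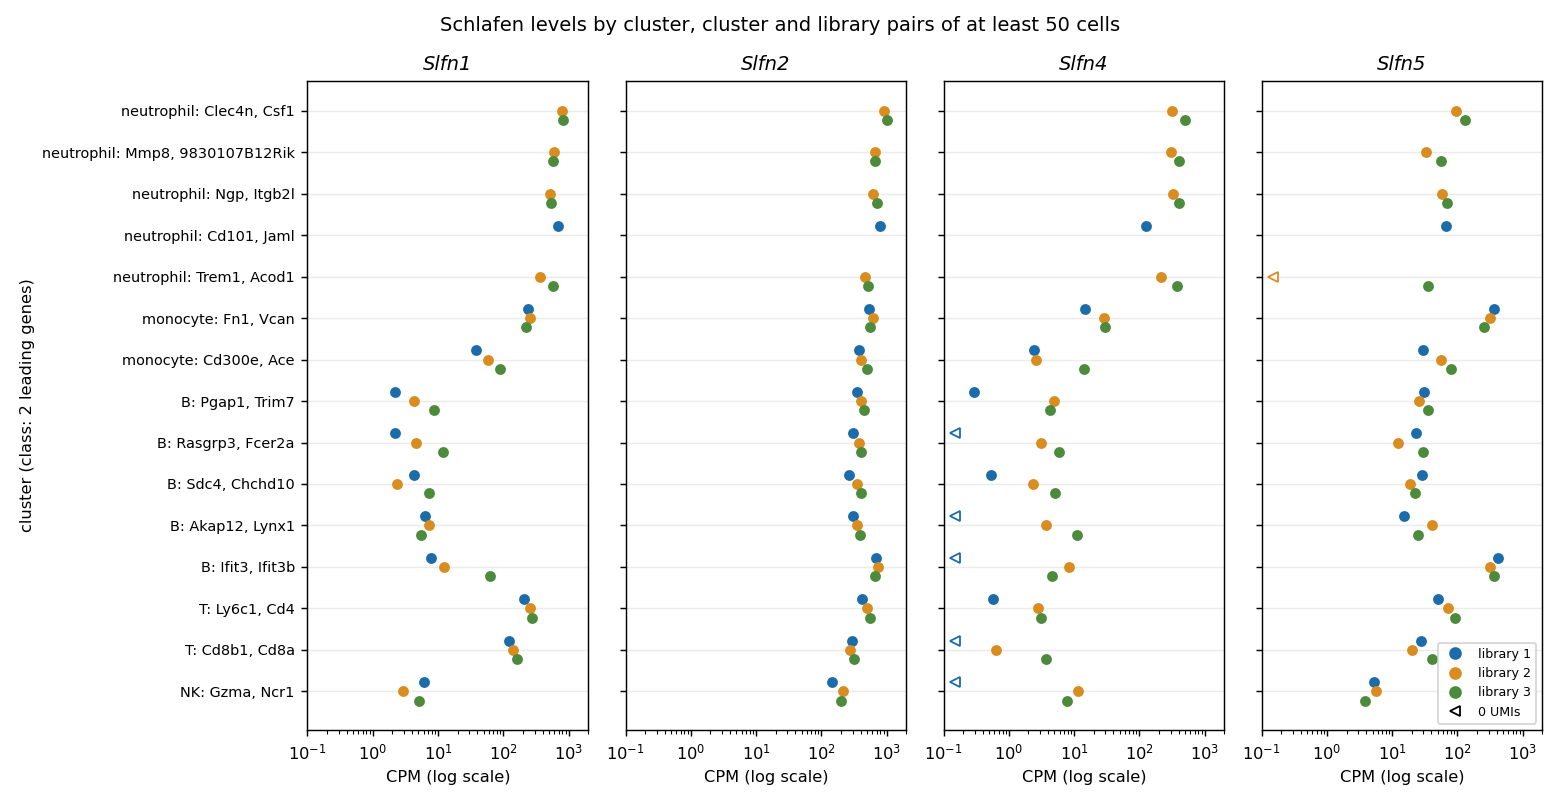
Level of each member (CPM, log axis) in every cluster of the 5 classes with at least 50 cells in a library, clusters named by their 2 leading genes and coloured by library; open triangles mark 0 UMIs. The Ifit3-led B-like cluster stands out from the other B-like clusters for Slfn5, and the Cd101- and Jaml-led neutrophil-like cluster of library 1 has the lowest Slfn4 of the neutrophil-like clusters.

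The spread over the libraries was read beside all genes of a class, since 1 library per group gives no replicate error. In neutrophil-like cells 45.4% of 9309 genes differed at least 2-fold between the highest and the lowest library with an interval above 1. Slfn4 did so, with library 3 3.13-fold above library 1 (2.73 to 3.603). Slfn1, Slfn2 and Slfn5 did not, with ratios of 1.197, 1.10 and 1.17. The median gene was lower by 0.81 on the log2 scale in library 3 than in library 1. S100a8 and S100a9 together took 12.02%, 26.3% and 31.0% of the neutrophil-like UMIs. UMIs of such genes enter the CPM of all others, but their part in the lower median was not tested. With TMM scaling Slfn4 was 5.77-fold higher in library 3 than in library 1, and Slfn1 and Slfn2 changed from highest to lowest in library 1 (log2 ratios of library 1 to 3 of -0.62 and -0.74). For Slfn5 the ratio of library 3 to 2 rose from 1.17 to 1.36 with TMM scaling. Its factors of 1.43, 0.901 and 0.776 in libraries 1, 2 and 3 made library 1 the lowest for Slfn5 too. The small spread of these 3 members is thus a result by CPM.

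**Figure D5:**
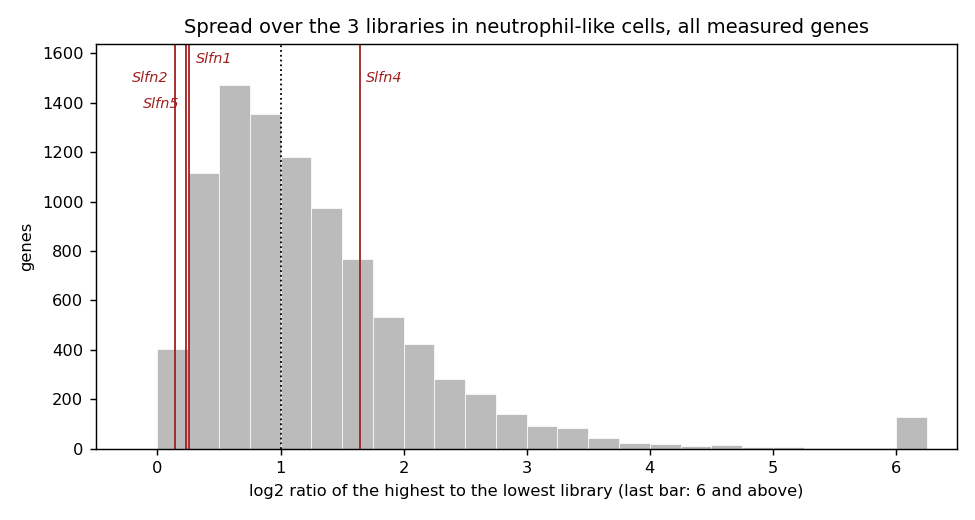
Histogram of the log2 ratio of the highest to the lowest library in neutrophil-like cells over 9309 genes (grey bars; the last bar also holds all larger ratios), with the 4 members as red lines and 2-fold as a dotted line. Slfn1, Slfn2 and Slfn5 lie in the low tail and Slfn4, at 1.65, lies to the right of the dotted line.

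The Slfn4 levels were also read by cluster. In the Cd101- and Jaml-led cluster Slfn4 stood at 125 CPM in library 1 (108 to 143) and at 191 CPM in library 2 (111 to 305, from 17 UMIs). Only 12 neutrophil-like cells of library 1 lay outside it, with 17 Slfn4 UMIs, and 12 of these UMIs came from 1 cell that fell in the Ifit3b-led cluster at the finer resolution. The 12 cells held 473 CPM, and the 11 cells without it held 153 CPM (49.8 to 358, from 5 UMIs). Without the Cd101- and Jaml-led cluster the log2 ratio of library 3 to 1 was -0.19 (-0.87 to 0.59), and without that 1 cell as well it was 1.44 (0.21 to 3.06), so too few cells were left to compare library 1 outside its own cluster. Neutrophil-like cells had median mitochondrial shares of 1.20%, 0.514% and 0.796%, and under the stricter filter the log2 ratio over the class was 1.59, against 1.65. Between libraries 2 and 3, which share the other clusters, library 3 was higher for Slfn4 in each of the 4 with at least 50 cells in both. The ratios were 1.55 (1.40 to 1.71) in the Clec4n- and Csf1-led cluster, 1.32 (1.21 to 1.44) in the Mmp8-led, 1.25 (1.09 to 1.44) in the Ngp- and Itgb2l-led and 1.75 (1.202 to 2.56) in the Trem1- and Acod1-led cluster. The median gene of the class was lower by 0.19 on the log2 scale in library 3 than in library 2. Slfn5 was 1.38-fold (1.14 to 1.67) and 1.74-fold (1.36 to 2.22) higher in library 3 in the Clec4n- and Csf1-led and the Mmp8-led cluster and 1.22-fold (0.887 to 1.73) in the Ngp- and Itgb2l-led cluster. Slfn1 was 1.57-fold higher in the Trem1- and Acod1-led cluster (1.17 to 2.11) and differed by less than counting error in the other 3. In the same 4 clusters Slfn2 had ratios of 1.10, 1.005, 1.15 and 1.12.

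Neutrophil-like clusters also differed from each other. In library 2, Slfn1 and Slfn5 stood at 799 and 95.4 CPM in the Clec4n- and Csf1-led cluster, against 587 and 32.5 CPM in the Mmp8-led cluster and 516 and 57.3 CPM in the Ngp- and Itgb2l-led cluster. Library 3 repeated that the Clec4n- and Csf1-led cluster was highest, at 831 CPM for Slfn1 and 132 CPM for Slfn5.

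In the other classes, the 2-fold mark was passed by 13.3% of genes in monocyte-like, 5.40% in B-like, 6.55% in T-like and 8.16% in NK-like cells. Slfn4 passed it in monocyte-like cells (2.54-fold, 1.75 to 3.75, library 2 above 1), in B-like cells (32.4-fold, 10.3 to 163, from 3 and 42 UMIs) and in T-like cells (13.2-fold, 3.15 to 117, from 2 and 18 UMIs). Slfn1 passed it in B-like cells (3.75-fold, 2.63 to 5.39). Each of these was lowest in library 1, which also had the fewest neutrophil-like cells. S100a8 in B-like cells was lowest there too, at 29.3 CPM against 416 and 347. Slfn1 in B-like cells stood at 3.02, 4.49 and 11.3 CPM in libraries 1, 2 and 3. The part of free RNA was not tested. The monocyte-like value also joins different clusters: at the finer resolution Slfn4 stood at 13.5, 10.8 and 10.1 CPM in the Cd209a-led cluster and at 30.3 and 30.7 CPM in the Vcan-led cluster of libraries 2 and 3, of which library 1 had 7 cells with 0 UMIs. In Cd300e- and Ace-led cells it stood at 2.43, 2.44 and 14.2 CPM, from 3, 1 and 22 UMIs. Slfn5 in B-like cells was 1.54-fold higher in library 3 than in library 1 (1.35 to 1.76). Without the Ifit3-led cluster its log2 ratio fell from 0.62 to 0.21 (-0.03 to 0.45). That of Slfn1 fell from 1.91 to 1.48 (0.92 to 2.05), and the cluster held 31.4% of the B-like Slfn1 UMIs of library 3. Slfn5 in T-like cells was 1.67-fold higher in library 3 than in library 1 (1.42 to 1.96).

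Interferon-stimulated genes, listed beside the family, were counted in the same way. Of 42 listed, 40 were measured and 19 had a fixed leading class, against 20.9% of all genes, 8 in neutrophil-like, 9 in monocyte-like, 1 in B-like and 1 in NK-like cells. In B-like cells 12 of 39 measured passed the 2-fold mark and all 12 were highest in library 3, and in T-like cells 13 of 38 did and all 13 were highest in library 3, against 5.40% and 6.55% of all genes past the mark. Their median deviation from the mean of the libraries was 0.37 in B-like and 0.36 in T-like cells of library 3, on the log2 scale, against -0.01 for all genes in both. In neutrophil-like cells 17 of 36 passed, near the 45.4% of all genes, and 11 of these were highest in library 3. In NK-like cells 8 of 28 passed, against 8.16% of all genes, and 5 of these were highest in library 1. In monocyte-like cells 10 of 39 passed, against 13.3% of all genes, and 8 of these were highest in library 1. In that library the Cd209a-led cells made up most of the Fn1- and Vcan-led cluster, and whether this mix bears on these genes was not tested. For no class was it counted how many of all genes past the mark were highest in each library. The counts by highest library therefore have no share of all genes beside them.

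Of the 19 interferon signalling and regulatory genes, 9 had a fixed class, against 20.9% of all genes: Socs3, a feedback inhibitor, in neutrophil-like cells, Ifnar2, Stat2, Irf5 and Irf7 in monocyte-like, Irf2 in B-like and Jak1, Tyk2 and Irf8 in NK-like cells. In the neutrophil-like class the levels of Socs3 were 151, 635 and 283 CPM. Ifi27l2a, an interferon-induced gene, stood at 1365, 1660 and 1956 CPM in monocyte-like and at 518, 363 and 761 CPM over the neutrophil-like class. Trim30a, an interferon-induced regulator, had 243, 518 and 315 CPM in the same class. Ly6e, a membrane protein that restricts viral entry, was led by B-like cells at 2414, 2662 and 2684 CPM.

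Lymphocyte quiescence genes were read in the same way. By CPM, Il7r, Ccr7, S1pr1, Tcf7 and Lef1, which mark naive T cells, were led by T-like cells. Klf2, Foxp1 and Bach2 were led by B-like cells, and Tob1, an antiproliferative protein, by neutrophil-like cells. Leads of listed genes and of all genes were not recomputed with TMM scaling. That scaling divides levels by 0.916, 0.538 and 0.474 in neutrophil-like and by 1.09, 1.12 and 1.09 in B-like cells. The B-like lead of Klf2 over neutrophil-like cells therefore depends on the scale. Klf2, a transcription factor of resting lymphocytes, stood at 1463, 1700 and 1564 CPM in B-like and 1281, 1271 and 1396 CPM in T-like cells, while the neutrophil-like class had 1297, 1637 and 1172 CPM. Of 17 proliferation genes, 3 had a fixed class, near the 20.9% of all genes: Hmgb2 in neutrophil-like, Tubb5 in T-like and Mcm6 in NK-like cells.

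The genes most like each member were taken by Pearson's r of log2(CPM + 1) over the 15 class and library sums, among 8221 genes. The points share libraries and classes, so r is a description. The nearest were Mettl9 and Fas for Slfn1 (both 0.95), Oas2 (0.95) and Oasl2 (0.92), interferon-induced RNA sensors of the OAS family, for Slfn2, S100a9 and S100a8 (both 0.98), Il1r2, Lcn2 and Stfa2l1 for Slfn4, and Nfix (0.94), Plin3 (0.94), Rbpj and Ifngr2 (both 0.93) for Slfn5. Between members r ran from 0.39 for Slfn4 with Slfn5 to 0.81 for Slfn2 with Slfn5.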

How the data were processed

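The deposited matrix holds UMI counts per gene and cell barcode, pooled over 3 libraries that are told apart by the barcode ending; per the file headers it was written by Cell Ranger 6.0.2, while Cell Ranger 4.0.0 and Trimmomatic 0.39 for reads, R 4.0.2 with Seurat 3.0, and the build GRCm38 stand in the submitters' processing notes. From these counts, cells below 200 genes or above 10% mitochondrial UMIs were left out, and doublets called by Scrublet (scanpy 1.11.5), 1.98%, 3.73% and 4.25% of the passing cells, were removed. Cells were clustered (2000 variable genes without the 4 members, 30 components, Leiden resolution 1), and clusters were named from listed markers with at least 3 detected; 415, 30 and 86 cells stayed unnamed. The naming rule was set after the data were seen. UMIs were summed per class and library, with exact Poisson intervals for levels, exact binomial (Clopper-Pearson) intervals for shares and exact conditional binomial intervals for ratios (scipy 1.17.1); genes needed at least 20 UMIs. TMM scaling used edgeR 4.0.16, on sums and without a test. Scripts were tested on simulated data. The members and lists were chosen with earlier results of these data known; named are the 4 members, the other Slfn genes, the 4 highest genes of the interferon and quiescence lists in each leading class and the 5 nearest genes by r. In each library the depth limits levels near 3 UMIs. Ages and sexes of the mice are not given in the sources used here. Some listed genes are not reported here.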

Additional observations from a re-analysis of the deposited data

How the results depend on the processing

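Slfn1, Slfn2 and Slfn4 had the same leading classes in all 3 libraries under the stricter and looser cell filters, kept doublets, resolution 2, clustering with the members and TMM scaling. Slfn5 lost its monocyte-like lead in library 1 under the stricter filter of 500 genes and 5% mitochondrial UMIs (log2 ratio to the next class -0.54) and at resolution 2 (-0.75). TMM scaling reversed the ratio of library 1 to 3 in neutrophil-like cells for Slfn1 (-0.62, from 0.26) and Slfn2 (-0.74, from 0.14) and raised that of library 3 to 1 for Slfn4 to 2.53, from 1.65. The stricter filter gave 0.34 for Slfn5 in monocyte-like cells, library 2 to 3, from 0.47. Without the Cd101- and Jaml-led cluster, an alternative chosen after seeing the data that leaves 12 such cells in library 1, these ratios were 0.46 for Slfn1, -0.051 for Slfn2 and -0.19 for Slfn4, and Slfn2 and Slfn5 led in 2 of 3 libraries. Without 1 further library 1 cell, which held 12 of the 17 Slfn4 UMIs left, they were 0.19 for Slfn1, -0.65 for Slfn2 and 1.44 for Slfn4, Slfn5 led in 3 of 3 libraries, and Slfn2 led in 2 (log2 ratio to the next class in library 1 -0.065). Beyond the effects of fewer cells or another scale, the cause was not tested. With at least 100 UMIs 23.5% of genes had a fixed leading class. No paired analysis was possible because each group has 1 library and no library is tied to a group.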
